A study of Mus musculus with 12 samples.

Results

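Transcripts of 35 genes that mark macrophages and other myeloid cells were examined in cultured mouse islets. The genes were taken by symbol from a named list, not by their values. The count table held 14089 genes, 34 of them on the list, and the remaining gene, Cd37, is not analysed here. RNA came from pancreatic islets of C57BL/6J mice, isolated by collagenase perfusion and treated for 24 hours. There were 3 libraries in each of 4 groups: the cytokine mixture with ML351 (called the combination), the cytokine mixture alone, ML351 alone at 10 µM, and vehicle. The mixture held IL-1β at 5 ng/ml, TNF-α at 10 ng/ml and IFN-γ at 100 ng/ml. ML351 inhibits 12/15-lipoxygenase, which adds oxygen to arachidonic and related fatty acids and is made by mouse macrophages as well as β cells. The question followed here is how these genes responded to the cytokines, and to ML351 in islets with and without them. The sources used here do not give the age or number of donor animals or any pooling. They do not say either whether the 3 libraries of a treatment stem from different mice or cultures, so each p-value reflects the spread among the libraries at hand, which could be technical.

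The macrophage is the main resident leukocyte of the mouse islet, where it lies against vessels and endocrine cells, takes up material released by β cells and presents antigen. It senses debris and microbes through Fc receptors, C-type lectins and complement, several of which signal through adaptors with an immunoreceptor tyrosine-based activation motif (ITAM), such as Tyrobp and Fcer1g. Growth and survival of the cell depend on the receptor Csf1r, and its gene programme on the transcription factor PU.1, the product of Spi1. In whole islets, fewer cells of a type and less RNA per cell cannot be told apart, and members such as Apoe, Ctss and Cd68 are not limited to macrophages.

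Libraries held 20208286 to 27193026 counts, of which the 34 measured members took 8164 to 18417. Values below are CPM, counts scaled to a common library total after TMM, a correction for differences in RNA composition. Each of the 14089 genes reached 0.503 CPM or more in at least 3 libraries, so a gene could enter the table through its high group alone. Fcgr1 and Fcgr2b averaged under 0.5 CPM in vehicle islets (0.498 and 0.413 CPM), and reached that level in 9 and 8 of the 12 libraries, all 6 with cytokines among them. Adgre1, which encodes the macrophage antigen F4/80, averaged 3.06 ± 0.423 CPM in vehicle islets (SD, n = 3), and Csf1r averaged 9.35 ± 2.20 CPM. Of the genes taken here as macrophage markers, Adgre1, Csf1r, Cd68, Mpeg1 and the C1q genes had counts in every library, and Cx3cr1 was at or near 0 in the libraries with cytokines.

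Summed over the 34 genes, the level was 616, 620 and 605 CPM in combination replicates 1, 2 and 4 and 742, 743 and 761 CPM in cytokine replicates 1, 3 and 4. It was 364, 354 and 321 CPM in ML351 replicates 1, 2 and 3 and 450, 438 and 424 CPM in vehicle replicates 1, 2 and 4. The 4 groups did not overlap: each pair with ML351 lay below its partner without it, and both cytokine groups lay above both others. The group means were 614 ± 7.62, 749 ± 10.7, 347 ± 22.2 and 437 ± 12.9 CPM (SD, n = 3) for the combination, cytokines, ML351 and vehicle. Without Apoe, which stellate, alpha and other cells also express, the means were 553, 672, 269 and 351 CPM in the same order.

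**Figure D1:**
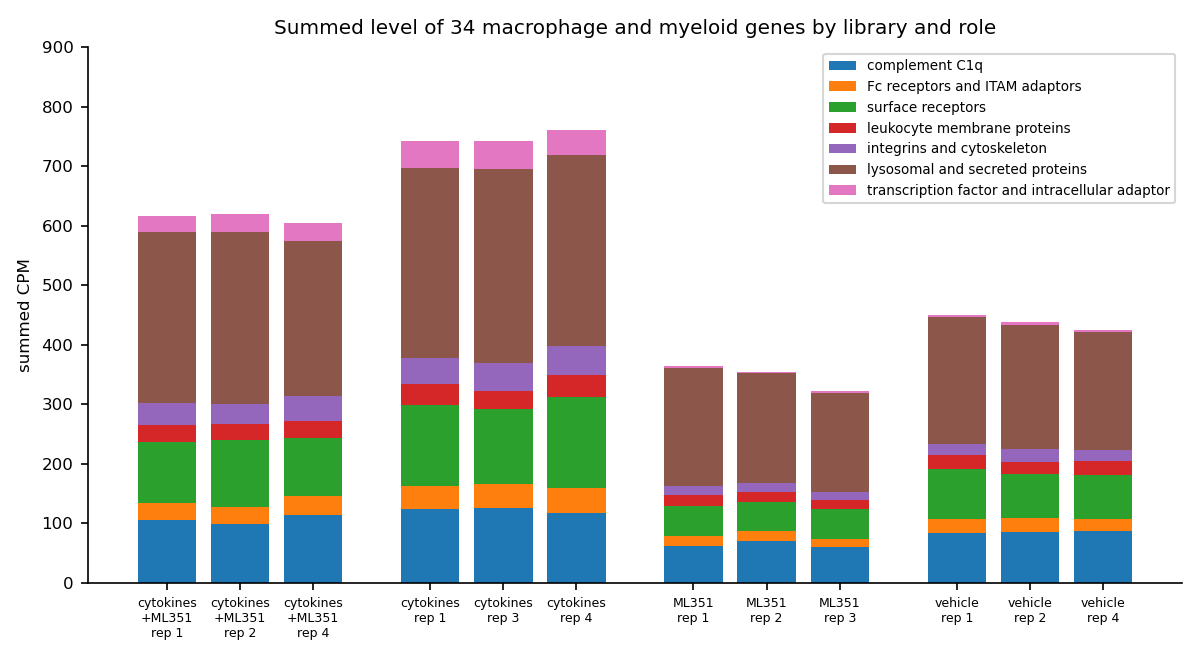
Summed CPM (y axis) of 34 macrophage and myeloid genes in each of the 12 libraries (x axis), stacked by the role of the genes. The combination libraries reach 605 to 620 CPM, below the cytokine libraries at 742 to 761 CPM, and the ML351 libraries reach 321 to 364 CPM, below the vehicle libraries at 424 to 450 CPM.

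The make-up of that sum changed with the cytokines. Apoe, Lyz2 and C1qa together made 28.2% of it in combination islets, 26.2% in cytokine islets, 56.8% in ML351 islets and 52.5% in vehicle islets. Cd68, Mpeg1 and Blnk together made 25.4%, 24.3%, 5.79% and 5.20% in the same order. Per kilobase of exon, a scale on which genes can be set against each other, Lyz2 stood first in vehicle islets at 63.9 ± 1.09 CPM per kb, ahead of C1qa at 56.5 ± 2.68. In cytokine islets Cd68 stood first at 77.0 ± 5.52 CPM per kb, against 10.4 ± 0.871 in vehicle islets.

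Against vehicle, cytokines left most of the list higher, with a few named exceptions. By edgeR's quasi-likelihood test with Benjamini-Hochberg adjustment over all genes, 24 of the 34 members rose and 2, Cx3cr1 and Lyz2, fell at an adjusted p under 0.05. Over all genes tested 35.3% were called higher and 37.2% lower in this comparison, which altered most of the islet transcriptome. The counts for each role and for the other gene lists below stand against the same shares. The median log2 fold change was 0.92 over the members and -0.02 over all genes. Cytokine and vehicle libraries did not overlap for 26 members that were higher and 3 that were lower, against 37.2% and 39.4% of all genes. Of 8 neutrophil markers named, S100a8, S100a9 and Ltf were measured and rose, S100a8 being in the table through the libraries with cytokines alone. The others, Ly6g, Cxcr2, Retnlg, Mmp8 and Camp, were not in the count table. Ltf rose to 189 ± 24.3 CPM in cytokine islets against 0.781 ± 0.192 CPM in vehicle islets. The part of other leukocytes in the members' levels was not tested.

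**Figure D2:**
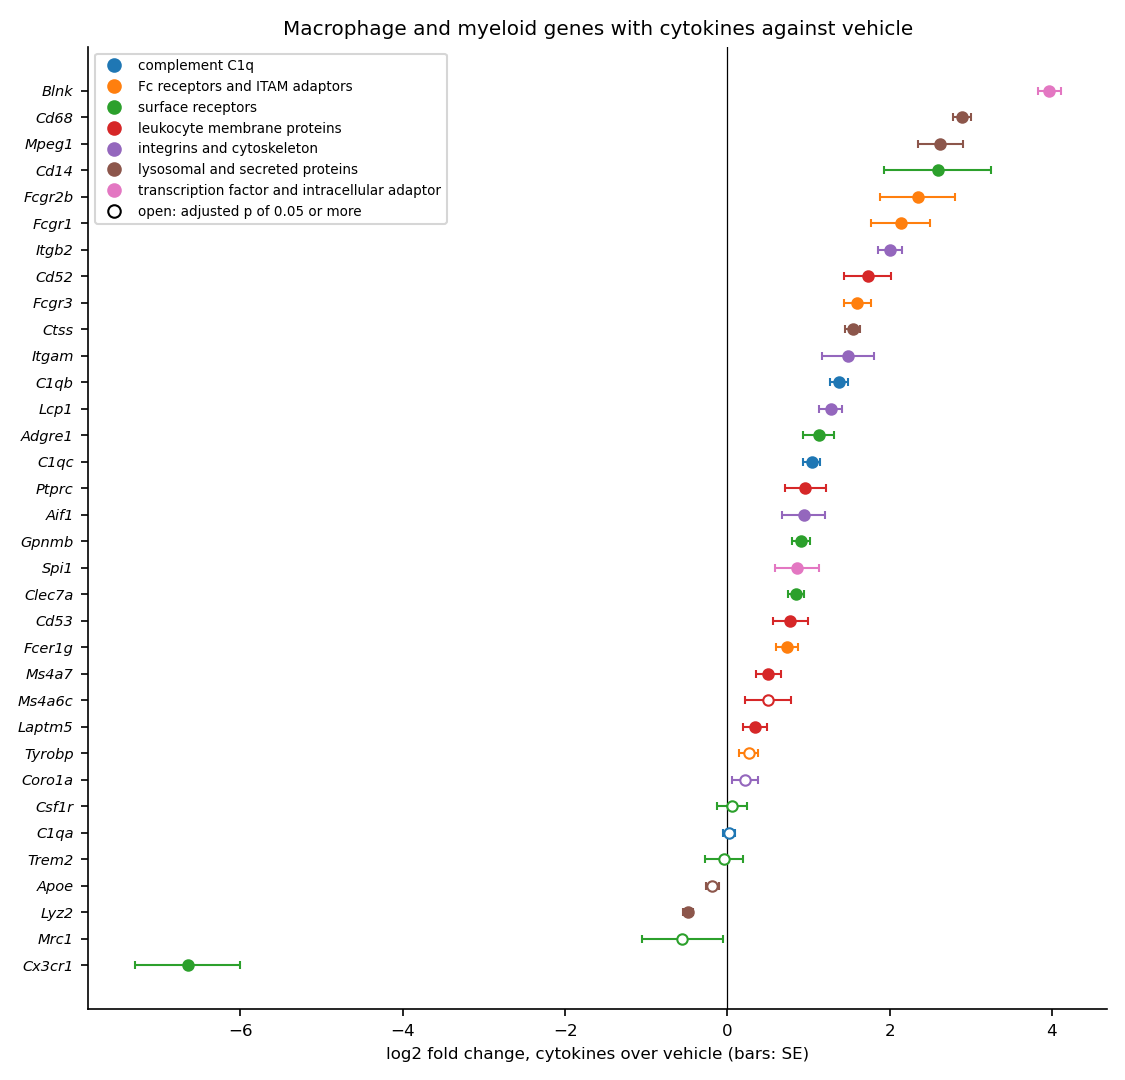
Log2 fold change of each of the 34 genes with cytokines over vehicle (x axis), with bars for the SE, ordered by size and coloured by role. Filled points passed an adjusted p of 0.05 in edgeR; Blnk stands highest at 3.97 and Cx3cr1 lowest, at a fitted -6.65 that depends on how counts near 0 are handled.

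C1qa, C1qb and C1qc encode the 3 chains of C1q, the recognition molecule of the classical complement pathway and are made largely by macrophages. They lie side by side on the minus strand of chromosome 4 in GRCm38, C1qb at chr4:136880129-136886187, C1qc at chr4:136889804-136893065 and C1qa at chr4:136895917-136898803. Shown are the promoter windows of C1qb (chr4:136886201-136886450, minus strand) and C1qc (chr4:136892915-136893164, minus strand), the 250 bases before the annotated start in RefSeq on GRCm38.p6. Both genes passed the test with cytokines. C1qa did not pass and its window is not shown, so the windows give no comparison with it. Capitals mark GAGGAA, the core letters bound by PU.1, or TTCCTC, the same letters on the other strand.
C1qb: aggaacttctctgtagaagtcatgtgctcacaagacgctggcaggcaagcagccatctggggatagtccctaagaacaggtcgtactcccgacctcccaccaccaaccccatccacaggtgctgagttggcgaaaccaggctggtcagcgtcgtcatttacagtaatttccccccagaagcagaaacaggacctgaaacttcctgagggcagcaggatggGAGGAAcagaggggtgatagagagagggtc
C1qc: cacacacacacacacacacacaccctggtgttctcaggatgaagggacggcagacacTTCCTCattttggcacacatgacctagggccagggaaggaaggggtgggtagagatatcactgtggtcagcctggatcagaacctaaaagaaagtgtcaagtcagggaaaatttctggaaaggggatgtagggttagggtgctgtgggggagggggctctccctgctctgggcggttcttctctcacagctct
The letters end 25 bases before the start in C1qb and 188 bases before it in C1qc. The RefSeq start of C1qc lies 151 bases inside the GENCODE gene given above, so these letters end 37 bases before the GENCODE start. On either strand they occurred in 15 of the 26 measured members that have a window (57.7%), against 25.9% of 27025 genes. A match of 6 letters is a description of the window and not a site shown to be bound. Each window printed here and below holds the letters, and whether they go with the response of a gene was not tested.

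C1qb had 42.9, 39.4 and 37.2 CPM in cytokine islets, against 16.8, 14.9 and 14.3 CPM in vehicle islets. C1qc had 23.5, 22.3 and 21.8 CPM in cytokine islets, against 10.7, 11.8 and 10.4 CPM in vehicle islets. Every cytokine library exceeded every vehicle library for both, with log2 fold changes of 1.38 ± 0.11 (SE, edgeR adjusted p = 7.69e-09) and 1.04 ± 0.10 (edgeR adjusted p = 8.84e-08). C1qa had 57.0, 64.2 and 57.7 CPM in cytokine islets, against 56.1, 58.5 and 61.7 CPM in vehicle islets. Its groups overlapped, and the log2 fold change was 0.02 with TMM scaling and -0.10 with upper-quartile scaling. The 95% interval of -0.14 to 0.18 with TMM leaves out a change of the size seen in its neighbours. With cytokines against vehicle, C1qb thus averaged 36.6 ± 2.62 against 14.1 ± 1.20 CPM per kb of exon, below C1qa in both (57.3 ± 3.79 and 56.5 ± 2.68).

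Fc receptors bind antibody and pass the signal through ITAM chains, and 4 of the 5 genes of that group rose with cytokines. Fcgr1, the high-affinity receptor for IgG, averaged 2.21 ± 0.571 CPM in cytokine islets and 0.498 ± 0.101 CPM in vehicle islets (SD, n = 3 each), a log2 fold change of 2.14 (edgeR adjusted p = 4.33e-05). Fcgr2b, the inhibitory receptor, rose by 2.34 (edgeR adjusted p = 0.000205) and Fcgr3, an activating receptor, by 1.60 (edgeR adjusted p = 9.57e-08) on the log2 scale. These 2 receptors have near-identical stretches, so reads could have been split between them and both values are uncertain. Fcgr2b was also in the table through the libraries with cytokines. Its place among the 4, and among all members called higher, was thus in part set by the threshold of the table. Fcer1g, the shared γ chain of activating Fc receptors, rose by 0.73 (edgeR adjusted p = 0.00012). Tyrobp, the adaptor DAP12 used by Trem2 and other receptors, had a log2 fold change of 0.26 and did not pass (edgeR adjusted p = 0.0535), although its cytokine libraries (14.2, 12.8 and 12.7 CPM) all exceeded its vehicle libraries (10.3, 12.2 and 10.6 CPM).

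The window of Fcgr1 (chr3:96293970-96294219, minus strand, GRCm38.p6) is shown as that of an Fc receptor that rose with cytokines, again with the PU.1 letters in capitals.
Fcgr1: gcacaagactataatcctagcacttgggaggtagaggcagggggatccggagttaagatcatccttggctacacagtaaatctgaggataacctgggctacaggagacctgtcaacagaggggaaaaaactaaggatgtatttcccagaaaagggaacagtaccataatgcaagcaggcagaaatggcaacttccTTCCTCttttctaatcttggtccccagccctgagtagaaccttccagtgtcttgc
TTCCTC ended 50 bases before the start.

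Of the 8 surface receptors, 4 were called higher and 1 lower with cytokines, against 35.3% and 37.2% of all genes. Cx3cr1, the receptor for fractalkine and a usual marker of resident macrophages, had 0, 1 and 0 counts in cytokine replicates 1, 3 and 4, against 46, 54 and 40 counts in vehicle replicates 1, 2 and 4. After scaling for depth, the level with cytokines was 0.732% of the vehicle level (95% exact interval 0.0184% to 4.15%, counting error only), from 1 count in all against 140. With ML351 present in both, the combination held 2, 2 and 1 counts, against 47, 50 and 27 counts with ML351 alone, or 4.94% of that level (1.57% to 11.8%). The near loss of Cx3cr1 with cytokines was thus seen in all 6 libraries that received them (edgeR adjusted p = 6.83e-08 against vehicle and 1.3e-06 in the presence of ML351). Cx3cr1 reached 0.5 CPM in 6 of the 12 libraries, all of them without cytokines, and so was in the table through those alone. Its place among the members called lower in both comparisons was thus in part set by the threshold of the table.

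Cd14, a co-receptor for bacterial lipopolysaccharide, varied widely within groups, at 7.62, 15.6 and 21.3 CPM with cytokines and 4.24, 1.64 and 1.38 CPM with vehicle. The ranges did not overlap, and the log2 fold change was 2.59 ± 0.66 (SE, edgeR adjusted p = 0.0066). Adgre1 averaged 6.67 ± 0.315 CPM in cytokine islets and 3.06 ± 0.423 CPM in vehicle islets (SD, n = 3 each), a rise of 1.12 on the log2 scale (edgeR adjusted p = 5.06e-05). Gpnmb, a glycoprotein of lysosome-rich macrophages, rose by 0.91 and Clec7a, the β-glucan receptor Dectin-1, by 0.84. Csf1r had a log2 fold change of 0.05 with TMM (edgeR adjusted p = 0.806) and -0.071 with upper-quartile scaling, with 10.8, 9.47 and 8.82 CPM in cytokine islets against 9.04, 11.7 and 7.32 CPM in vehicle islets. Trem2, a lipid-sensing receptor, stood at -0.05 (edgeR adjusted p = 0.867), and Mrc1, the mannose receptor, at -0.56 (edgeR adjusted p = 0.326) from 25 counts in all with cytokines and 38 with vehicle. Exons of Csf1r share 15.1% of their bases with Hmgxb3 on the opposite strand, and without strand the reads there cannot be told apart.

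Of the 6 measured membrane proteins found on many leukocytes, 5 rose. Cd52, a short glycosylphosphatidylinositol-anchored protein, rose by 1.73 on the log2 scale (edgeR adjusted p = 3.92e-05), and Ptprc, which encodes the pan-leukocyte phosphatase CD45, by 0.96 (edgeR adjusted p = 0.00225). The tetraspanin Cd53 rose by 0.78, Ms4a7 by 0.51 and the lysosomal membrane protein Laptm5 by 0.34. The call of Laptm5 (edgeR adjusted p = 0.0439) was lost in 6 of the 12 fits that left out a library. Ms4a6c, at 0.50, did not pass (edgeR adjusted p = 0.121).

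Of the integrin and cytoskeletal genes 4 of 5 rose. Itgb2, the β2 integrin chain, averaged 17.1 ± 1.61 CPM in cytokine islets and 4.24 ± 0.697 CPM in vehicle islets (SD, n = 3 each), a rise of 2.00 on the log2 scale (edgeR adjusted p = 2.03e-09). Its partner Itgam, the CD11b chain, rose by 1.49 (edgeR adjusted p = 0.000496), though it shares 68.7% of its exon bases with the protein-coding gene Gm49368 on the same strand and its value is uncertain. The actin bundler Lcp1 rose by 1.27 and Aif1, which encodes IBA1, by 0.94. Coro1a, an actin regulator of leukocytes, stood at 0.22 and did not pass (edgeR adjusted p = 0.216).

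Of the 5 genes of lysosomal and secreted proteins, 3 rose and 1 fell. Cd68, the lysosomal glycoprotein macrosialin, had 96.0, 104 and 90.2 CPM in cytokine islets, against 12.0, 14.2 and 12.98 CPM in vehicle islets. Mpeg1, the pore-forming protein perforin-2, had 38.0, 44.5 and 46.4 CPM in cytokine islets, against 7.68, 5.09 and 8.10 CPM in vehicle islets. Neither gene's ranges overlapped, and the log2 fold changes were 2.89 ± 0.11 (edgeR adjusted p = 1.24e-12) and 2.62 ± 0.28 (edgeR adjusted p = 1.23e-05). Ctss, the protease cathepsin S that trims the MHC class II invariant chain, rose by 1.54 (edgeR adjusted p = 1.85e-10). Lyz2, the lysozyme of macrophages and neutrophils, had 60.1, 60.1 and 59.8 CPM in cytokine islets, against 85.7, 83.0 and 83.6 CPM in vehicle islets, a log2 fold change of -0.49 ± 0.061 (edgeR adjusted p = 1.52e-06). Lyz2 has the close copy Lyz1, so its value is uncertain to the extent that reads were split. Apoe, the lipid carrier, was lower in each cytokine library (74.2 to 78.7 CPM) than in each vehicle library (79.3 to 90.7 CPM), at a log2 fold change of -0.18 that did not pass (edgeR adjusted p = 0.0536).

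Blnk showed the largest rise of the 34. It encodes an adaptor of antigen receptor signalling that macrophages as well as B cells use, and it had 42.5, 44.3 and 39.9 CPM in cytokine islets, against 2.63, 2.94 and 2.53 CPM in vehicle islets. The groups lay far apart, with a log2 fold change of 3.97 ± 0.14 (edgeR adjusted p = 1.15e-13). The B cell marker Cd79a, the 1 of 5 such markers measured, fell to 1.33 ± 0.107 CPM in cytokine islets, against 2.29 ± 0.0466 CPM in vehicle islets (log2 fold change -0.78, edgeR adjusted p = 0.0148). Spi1 rose by 0.86 (edgeR adjusted p = 0.00892), a call lost without vehicle replicate 4.

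With ML351 present in both arms, the combination against ML351 alone gave 27 members higher and 3 lower, Cx3cr1, Lyz2 and Apoe, at a median log2 fold change of 1.10. Over all genes 35.2% were called higher and 36.4% lower there. Blnk, Mpeg1 and Cd68 again stood highest, at 3.58, 2.96 and 2.82. C1qa, which did not pass between cytokines and vehicle, rose by 0.38 here (edgeR adjusted p = 0.000256), as did Tyrobp by 0.61 and Ms4a6c by 1.46. Apoe fell by 0.36 (edgeR adjusted p = 0.000916). Whether these differ from the response without ML351 is what the interaction below tests.

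ML351 was set against its own control in islets without and with cytokines, comparisons that share no library. Without cytokines, 30 of the 34 members had a log2 fold change below 0, against 47.8% of all genes, with a median of -0.43 against 0.01 over all genes. ML351 libraries lay below all vehicle libraries for 20 members and above them for 0, against 7.32% and 8.57% of all genes. Only Clec7a was called by edgeR (1 of 34), in a comparison in which 0.0213% of all genes were called lower and 0.0142% higher, and 20 members had an unadjusted p under 0.05, against 8.98% of all genes. With cytokines, 30 of 34 were again below 0, against 49.0% of all genes, at a median of -0.33 against 0.0041 over all genes. Of the 34, 19 had ranges that lay apart and lower, against 10.3% of all genes. Ranges lay apart and higher for 2, Ms4a6c and Cx3cr1 (the second at 0 to 2 counts a library), against 10.1% of all genes. Here edgeR called 5 members lower, Blnk, Clec7a, Laptm5, Gpnmb and C1qc, and 0 higher, against 0.788% and 0.646% of all genes, and 14 members had an unadjusted p under 0.05, against 15.7% of all genes. That count of 5 was 3 without vehicle replicate 1, ML351 replicate 2 or combination replicate 1, and 2 without any 1 of the cytokine replicates or combination replicate 2. Fold changes were below 0 in both settings for 27 of the 34 members, against 27.8% of all genes, and above 0 in both for Cd14 alone.

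**Figure D3:**
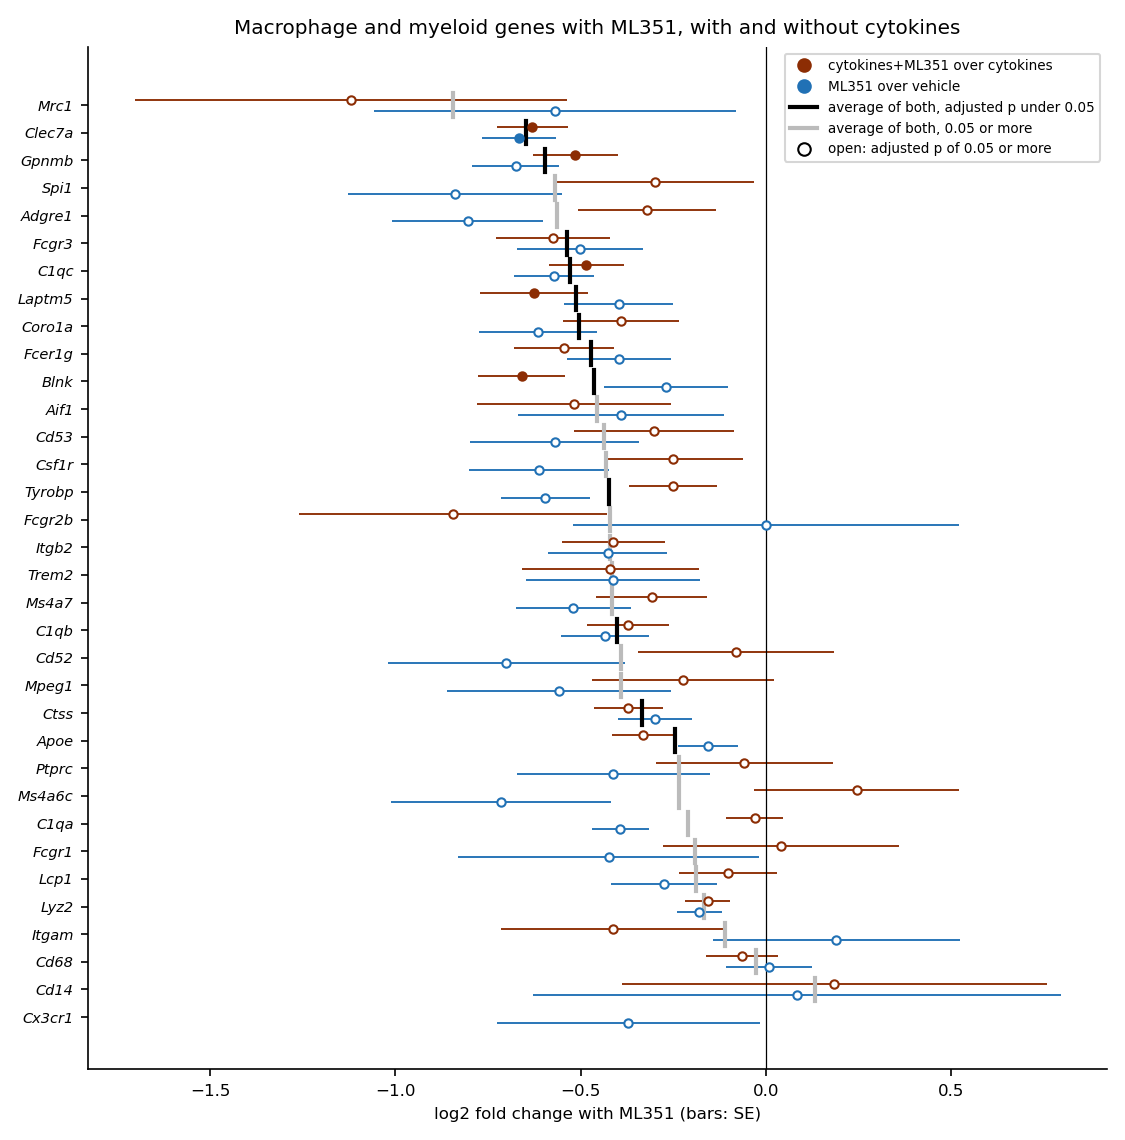
Log2 fold change with ML351 (x axis) for each gene, for the combination over cytokines (upper point) and ML351 over vehicle (lower point), with bars for the SE, and the average of both as a vertical mark. Clec7a is filled in both settings, at -0.63 and -0.67; for Cx3cr1, at 0 to 2 counts in the libraries with cytokines, no fold with cytokines and no average are drawn.

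Clec7a was called in both settings. Dectin-1 recognises fungal β-glucan and signals through Syk, and its gene lies on the minus strand at chr6:129461591-129472779 in GRCm38. The 250 bases before its upstream RefSeq start (chr6:129472786-129473035, minus strand, GRCm38.p6) hold GAGGAA, in capitals, ending 85 bases before the start.
Clec7a: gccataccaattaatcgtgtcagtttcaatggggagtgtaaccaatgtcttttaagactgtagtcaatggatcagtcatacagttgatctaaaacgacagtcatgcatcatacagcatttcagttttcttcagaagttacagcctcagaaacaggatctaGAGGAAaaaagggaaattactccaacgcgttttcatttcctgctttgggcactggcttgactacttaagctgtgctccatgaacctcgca
Clec7a had 15.7, 15.2 and 17.4 CPM in combination islets, against 25.3, 25.3 and 24.1 CPM in cytokine islets. It had 8.20, 9.11 and 8.90 CPM in ML351 islets, against 14.6, 12.3 and 14.7 CPM in vehicle islets. Each ML351 library lay below each library of its own control, and the 4 groups did not overlap one another. The log2 fold changes were -0.63 ± 0.096 with cytokines (SE, edgeR adjusted p = 0.00865) and -0.67 ± 0.10 without (edgeR adjusted p = 0.0421), the second a fall of 36.9%. The call with cytokines was kept in all 12 fits that left out a library. The call without cytokines was lost with DESeq2 size factors, and in 6 of the 12 fits, without vehicle replicate 1 or 4, ML351 replicate 1 or any cytokine replicate, where the adjusted p reached 0.222.

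Averaged over both settings, a contrast that uses all 12 libraries, 12 of the 34 members were called lower with ML351 and 0 higher, against 0.88% and 0.667% of all genes called lower and higher. These were Clec7a, Gpnmb, C1qc, Fcgr3, Laptm5, Coro1a, Fcer1g, Blnk, Tyrobp, C1qb, Ctss and Apoe, lower by 15.6% to 36.2%. The median over the members was -0.42, against 0.0067 over all genes, and 32 of 34 lay below 0, against 47.8% of all genes. They took in 2 of 3 C1q chains, 3 of 5 Fc receptor and ITAM genes, 2 of 8 surface receptors and 1 to 2 genes of each remaining role. Clec7a, Gpnmb and C1qc were called in each of the 12 fits that left out a library. Ctss was called in 9 of them, Laptm5 in 7, and Coro1a, Apoe and Blnk in 2 each. The count of members called lower fell to 4, 3 and 7 without vehicle replicates 1, 2 and 4, to 5 and 6 without cytokine replicates 1 and 4, and to 7 without combination replicate 2.

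Gpnmb had 56.7, 55.6 and 54.0 CPM in combination islets, against 82.8, 65.7 and 88.9 CPM in cytokine islets. It had 24.3, 26.0 and 29.0 CPM in ML351 islets, against 49.0, 36.7 and 40.9 CPM in vehicle islets. Neither pair overlapped, and the averaged log2 fold change was -0.59 ± 0.082 (SE, edgeR adjusted p = 0.00675). C1qc had 15.8, 15.5 and 17.1 CPM in combination islets and 8.03, 7.76 and 6.34 CPM in ML351 islets, each below all 3 libraries of its control given above. Its averaged log2 fold change was -0.53 ± 0.074 (edgeR adjusted p = 0.00446). C1qb fell by 0.40 (edgeR adjusted p = 0.0256), a call lost in 3 of the 12 fits.

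In the cytokine setting C1qb and C1qc lay below their controls without overlap, and C1qa overlapped. Of them C1qc alone passed there. C1qb stood at -0.37 with cytokines (edgeR adjusted p = 0.105) and at -0.43 without (edgeR adjusted p = 0.223). C1qa had 59.2, 55.9 and 60.1 CPM in combination islets, against 57.0, 64.2 and 57.7 CPM in cytokine islets. The ranges overlapped, with combination replicate 2 below each cytokine library. In ML351 islets C1qa had 41.0, 50.0 and 43.2 CPM, all below the vehicle islets. The log2 fold changes were -0.03 with cytokines (edgeR adjusted p = 0.895) and -0.39 without (edgeR adjusted p = 0.0833). Its interaction was 0.36 with a 95% interval of 0.13 to 0.59, and did not pass (edgeR adjusted p = 0.37).

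The ITAM chains fell with ML351 on the average over both settings, and passed in neither setting alone. Fcer1g averaged 8.57 ± 0.708 CPM in combination islets and 12.5 ± 0.474 CPM in cytokine islets, and 5.73 ± 0.910 CPM in ML351 islets and 7.53 ± 0.930 CPM in vehicle islets (SD, n = 3 each). Its averaged log2 fold change was -0.47 ± 0.097 (SE, edgeR adjusted p = 0.0286), with edgeR adjusted p of 0.0547 with cytokines and 0.355 without. Tyrobp had 10.4, 11.3 and 11.7 CPM in combination islets, against 14.2, 12.8 and 12.7 CPM in cytokine islets, and 7.56, 8.05 and 6.26 CPM in ML351 islets, against 10.3, 12.2 and 10.6 CPM in vehicle islets. None of these 4 pairs overlapped, and Tyrobp averaged -0.42 ± 0.084 (edgeR adjusted p = 0.0242), with edgeR adjusted p of 0.316 with cytokines and 0.0936 without. These calls were kept in 8 and 10 of the 12 fits that left out a library. Fcgr3 averaged -0.54 (edgeR adjusted p = 0.034), a call kept in 3 of the 12.

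Blnk had 24.6, 27.3 and 28.4 CPM in combination islets, against 42.5, 44.3 and 39.9 CPM in cytokine islets. It had 2.97, 1.71 and 2.09 CPM in ML351 islets, against 2.63, 2.94 and 2.53 CPM in vehicle islets. The libraries with cytokines lay apart and those without overlapped, with log2 fold changes of -0.66 ± 0.12 (edgeR adjusted p = 0.0133) and -0.27 ± 0.17 (edgeR adjusted p = 0.699). The difference between them, -0.39, had a 95% interval of -0.82 to 0.04 and did not pass (edgeR adjusted p = 0.628). The call with cytokines was kept in 11 of the 12 fits that left out a library, lost without cytokine replicate 3, and that on the average in 2. Laptm5 had 7.87, 6.40 and 7.15 CPM in combination islets against 11.9, 10.8 and 10.4 CPM in cytokine islets, a log2 fold change of -0.63 (edgeR adjusted p = 0.0465) that was called in only 2 of the 12 fits. It also lay apart without cytokines, at 7.77, 6.96 and 5.12 CPM in ML351 islets against 8.15, 8.69 and 9.30 CPM in vehicle islets, where the log2 fold change of -0.40 did not pass (edgeR adjusted p = 0.386).

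Among the abundant members, Cd68 had 91.6, 92.3 and 93.8 CPM in combination islets and 96.0, 104 and 90.2 CPM in cytokine islets, and its averaged log2 fold change was -0.03 ± 0.076 (edgeR adjusted p = 0.902). Lyz2, at -0.17 (edgeR adjusted p = 0.0591), and Adgre1, at -0.56 (edgeR adjusted p = 0.051), missed the threshold on the average. Adgre1 had 1.61, 2.08 and 1.54 CPM in ML351 islets, below each of its vehicle libraries at 2.59, 3.41 and 3.18 CPM. In combination islets it had 4.20, 5.74 and 6.06 CPM, against 6.33, 6.72 and 6.95 CPM in cytokine islets, again without overlap. Itgb2, at -0.42 (edgeR adjusted p = 0.0573), and Ms4a7, at -0.41 (edgeR adjusted p = 0.0619), also missed it, and Cd14 stood at 0.13 with an SE of 0.46.

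**Figure D4:**
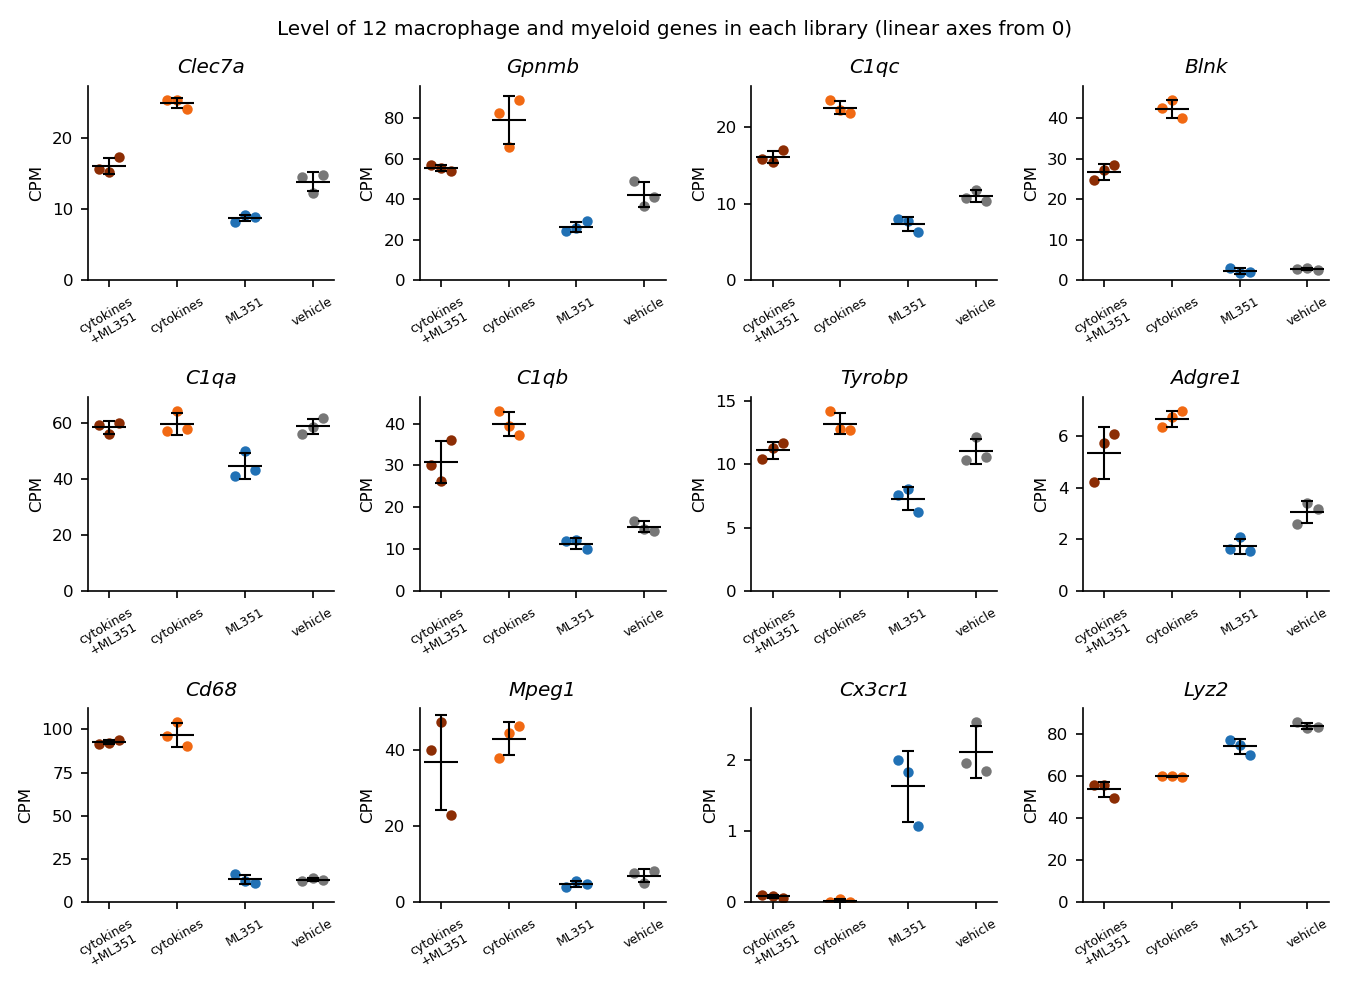
CPM (y axis, linear, from 0) of 12 of the genes in each library, by group (x axis), with the mean and SD over 3 libraries as bars. Clec7a, Gpnmb, C1qc and Tyrobp have ML351 libraries that all lie below those of their control in both settings, while Cd68 lies at 91.6 to 93.8 CPM in combination islets and 90.2 to 104 CPM in cytokine islets.

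Summed by role, the members were lower with ML351 across the list, described here with no test. The C1q genes summed to 97.8 to 113 CPM in combination islets, against 117 to 126 CPM in cytokine islets, and to 59.5 to 70.0 CPM in ML351 islets, against 83.6 to 86.4 CPM in vehicle islets. The Fc receptor and ITAM genes summed to 28.9 to 31.7 CPM in combination islets, against 39.6 to 41.6 CPM in cytokine islets, and to 14.0 to 17.7 CPM in ML351 islets, against 21.4 to 24.1 CPM in vehicle islets. Surface receptors, leukocyte membrane proteins, integrin and cytoskeletal genes, and lysosomal and secreted proteins showed the same order without overlap in both settings. The narrowest gap was that of the lysosomal and secreted group without cytokines, at 166 to 196.7 CPM in ML351 islets and 197.5 to 212 CPM in vehicle islets. Spi1 and Blnk together overlapped without cytokines, at 2.48 to 3.91 CPM in ML351 islets and 3.59 to 4.91 CPM in vehicle islets.

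Whether the ML351 difference depended on the cytokines was tested by the interaction. None of the 34 members passed in edgeR, against 0.0071% of all genes, and 3 had an unadjusted p under 0.05, against 8.23% of all genes, a share near that background. DESeq2 also called 0. The interaction was 0.03 for Clec7a (95% interval -0.26 to 0.33), 0.09 for C1qc (-0.23 to 0.40) and 0.16 for Gpnmb (-0.19 to 0.52) on the log2 scale. These intervals limit how far the 2 settings could differ and do not show that they are alike. Ms4a6c had the interaction furthest from 0 among members with 10 or more counts in each group, 0.96 with an interval of 0.10 to 1.82 (edgeR adjusted p = 0.554).

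Of other genes of macrophages, 32 were measured out of 43 named, and with cytokines 19 rose and 2 fell, Sirpa and P2ry6, against 35.3% and 37.2% of all genes. Of these 32, 4 reached 0.5 CPM in under 3 of the 6 libraries without cytokines and so were in the table through the libraries with them. The lysosomal protease Ctsb, which many cells make, had 5071 ± 26.99 CPM in cytokine islets and 1065 ± 30.3 CPM in vehicle islets (log2 fold change 2.25, edgeR adjusted p = 1.36e-15). With ML351 averaged over both settings, the lectin Lgals3 (-0.36, edgeR adjusted p = 0.0166), the scavenger receptor Cd36 (-0.34, edgeR adjusted p = 0.0166), Acp5 (-0.53, edgeR adjusted p = 0.0418) and Lgmn (-0.18, edgeR adjusted p = 0.0498) fell, and Hpgds, a prostaglandin D synthase, rose (0.32, edgeR adjusted p = 0.0118). The calls of Hpgds, Lgals3 and Cd36 were kept in 11 or 12 of the 12 fits that left out a library, those of Acp5 and Lgmn in 2 and 1. The median of these 32 genes was -0.20, against 0.0067 over all genes, and 27 lay below 0, against 47.8% of all genes. In that contrast 0.88% of all genes were called lower and 0.667% higher.

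Downstream of the ITAM adaptors, cytokines raised 10 of 15 measured genes out of 20 named, among them the kinase Lyn by 3.13, and lowered Plcg2 by 0.61. Of the 10, Lcp2 was in the table through the libraries with cytokines. Syk, the kinase that Dectin-1 uses, rose by 0.87 (edgeR adjusted p = 0.0268), a call kept in 9 of the 12 fits. Averaged over both settings 0 of the 15 were called with ML351 in edgeR and 0 in DESeq2, with 3 at an unadjusted p under 0.05 in edgeR, against 16.9% of all genes. Of the ligands and receptors of colony-stimulating factors 5 of 6 measured out of 8 named rose with cytokines, Csf3 being in the table through those libraries. Among the 5 was Csf1, the ligand of Csf1r, at 255 ± 22.7 CPM in cytokine islets and 23.7 ± 3.96 CPM in vehicle islets (log2 fold change 3.43, edgeR adjusted p = 1.81e-12). With ML351 Csf1 averaged -0.20 (edgeR adjusted p = 0.196). Of 9 measured myeloid transcription factors out of 13 named, 6 rose, among them Irf8 by 3.40, and 1 fell with cytokines. With ML351 on the average edgeR called 0 of the 9, with 1 at an unadjusted p under 0.05 (16.9% of all genes), and DESeq2 called 1 lower.

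Genes of macrophage state were also followed. Of 18 named genes of classical activation 13 were measured, and each rose with cytokines. Tnf and Ccr7 were in the table through the libraries with cytokines and had to differ, and the 5 not measured are not counted, so that count is in part set by the threshold of the table. Nos2, the inducible nitric oxide synthase that β cells make too, averaged 998 ± 81.4 CPM in combination islets and 1225 ± 51.5 CPM in cytokine islets. Its averaged ML351 log2 fold change was -0.40 (edgeR adjusted p = 0.044), a call kept in 3 of the 12 fits. Of the 13, edgeR called Nos2 alone lower on that average and 0 higher, against 0.88% and 0.667% of all genes. DESeq2 called 2 lower. Of the 13, 8 lay below 0 and 5 above, against 47.8% of all genes below 0. In edgeR 4 had an unadjusted p under 0.05 (16.9% of all genes). Of 9 genes of alternative activation measured out of 20 named, 5 rose and 2 fell with cytokines, against 35.3% and 37.2% of all genes, among them Arg1 with a log2 fold change of -5.15. Of the 5 that rose, Ccl22 was in the table through the libraries with cytokines. Of these 9, edgeR and DESeq2 called 0 with ML351 on the average, with 1 at an unadjusted p under 0.05 in edgeR (16.9% of all genes). Of the 5 subunits of the phagocyte NADPH oxidase 3 rose with cytokines, among them Ncf4, which was in the table through those libraries. Cybb, the catalytic subunit of the oxidase, fell with ML351 on the average (-0.37, edgeR adjusted p = 0.034, kept in 4 of the 12 fits). All 7 MHC class II genes measured rose with cytokines, Ciita being in the table through the libraries with cytokines alone. With ML351 on the average edgeR called H2-Aa alone of them lower (-0.50, edgeR adjusted p = 0.0305, kept in 5 of the 12 fits), and DESeq2 called 4 lower. All 7 lay below 0 there, against 47.8% of all genes, and 4 had an unadjusted p under 0.05 in edgeR (16.9% of all genes).

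Markers of other cells moved alongside, and their part in the members' differences was not tested. The 9 endothelial markers, all measured, summed to 10.9 to 16.4 CPM in combination islets, against 18.5 to 26.8 CPM in cytokine islets, and to 109 to 113 CPM in ML351 islets, against 93.7 to 103 CPM in vehicle islets. In the presence of cytokines Plvap, Cdh5 and Kdr were called lower with ML351 (kept in 10, 2 and 1 of the 12 fits), against 0.788% of all genes. Without cytokines the summed range of the 9 lay higher with ML351. There edgeR called 0 of the 9, with 1 at an unadjusted p under 0.05 (8.98% of all genes), and DESeq2 called 0. The 10 acinar markers measured out of 12 summed to 813 to 1185 CPM in combination islets, against 27.3 to 708 CPM in cytokine islets, and to 90.9 to 201 CPM in ML351 islets, against 144 to 506 CPM in vehicle islets. The 9 fibroblast and stellate markers, all measured, summed to 30.1 to 144 CPM in combination islets, against 45.8 to 73.1 CPM in cytokine islets, and to 100.3 to 242 CPM in ML351 islets, against 108 to 341 CPM in vehicle islets. Of the 7 beta cell markers 6 fell with cytokines, among them Slc2a2, the glucose transporter GLUT2, by 3.95 (edgeR adjusted p = 8.57e-14) and Ucn3, urocortin 3, by 5.03 (edgeR adjusted p = 4.01e-14) on the log2 scale, and Ins2 did not pass (-0.067). With ML351 on the average edgeR called 0 of these 7, with 1 at an unadjusted p under 0.05 (16.9% of all genes), and DESeq2 called 0. Of 11 T and NK cell markers Lck, a T cell kinase, alone was measured. It rose to 15.7 ± 0.904 CPM in cytokine islets, against 4.11 ± 0.285 CPM in vehicle islets (SD, n = 3 each; log2 fold change 1.93, edgeR adjusted p = 1.26e-09). Lck averaged 2.63 ± 0.425 CPM in ML351 islets, each library below each vehicle library, at a log2 fold change of -0.64 that did not pass (edgeR adjusted p = 0.165). Of 8 dendritic cell markers 3 were measured, and of 4 mast cell markers 0.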

How the data were processed

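The members and the other gene lists were chosen with earlier results of these data known, so no list is independent of them. The authors deposited whole-number counts of reads per gene, not normalized and not pooled. The SMARTSeq v4 kit used, per the labels' protocols, does not record strand, so overlapping and antisense genes cannot be separated. Per the submitters' processing notes, FastQC, STAR, featureCounts, Subread and DESeq2 were used on mm10, with no versions stated. Every gene in the table had 0.503 CPM (scaled to the library total) or more in at least 3 libraries.

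Counts were tested with edgeR 4.0.16 in R 4.3.3 (TMM, filterByExpr by group, robust glmQLFit, glmQLFTest), with 1 mean per group over all 12 libraries and 6 contrasts. The filter removed 0 genes. P-values were adjusted by Benjamini-Hochberg across the 14089 genes, and a gene was called at 0.05. The SE is the size of the log2 fold change over the square root of F, intervals are at 95%, and the Cx3cr1 intervals are exact and cover counting error only. Alternatives were DESeq2 1.42.0, 2 other scalings, 2 other filters, the replicate number as a block, only the groups compared, and each library left out. The code was tested on simulated counts.

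No pair of libraries of a group matched within sampling noise (chi-square per degree of freedom 4.11 to 21.3). Coordinates and exon lengths came from GENCODE M21 (GRCm38) and promoter windows from RefSeq (GRCm38.p6), in which 26 of the 34 members matched by symbol.

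All members were named. Values in every library were fixed for Clec7a, C1qa, C1qb, C1qc, Tyrobp, Adgre1 and the 4 largest rises and falls with cytokines, and of other lists up to 3 genes by smallest p in a contrast. Other values by library, and Sirpa, P2ry6, Acp5, Lgmn, Plcg2, Syk, Lck, Slc2a2 and Ucn3, were chosen after their values were seen. Some genes of the other lists are not reported here.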

Additional observations from a re-analysis of the deposited data

Results flagged for a closer look

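Ms4a6c, a member of the Ms4a family of membrane proteins, had ranges that lay apart from the controls on opposite sides with ML351 in the 2 settings, though neither difference passed (edgeR adjusted p = 0.718 with cytokines and 0.482 without). It had 2.20, 2.16 and 2.23 CPM in combination islets, above all of the cytokine islets at 1.98, 1.96 and 1.61 CPM, and 0.722, 1.06 and 0.591 CPM in ML351 islets, below all of the vehicle islets at 1.27, 1.17 and 1.47 CPM. The interaction was 0.96 on the log2 scale and did not pass in edgeR's quasi-likelihood test (adjusted p = 0.554). The groups held 137, 121, 61 and 87 counts in all (combination, cytokines, ML351 and vehicle), and 53.1% of the exon bases of Ms4a6c are shared with BE692007 on the opposite strand.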

How the results depend on the processing

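The cytokine response was the firmest result: 23 to 25 members were called higher under every alternative run, with Laptm5 and Spi1 lost and Tyrobp gained in some. Its median was 0.80 and that of the combination against ML351 0.98 with upper-quartile factors, which moved the median of all genes by -0.12 in both. The ML351 counts were less firm. Members called lower without cytokines were 0 with DESeq2 size factors, 4 with DESeq2's Wald test and 2 with the groups compared alone. With cytokines they were 8 with DESeq2 size factors or upper-quartile factors, 10 with DESeq2's test and 3 with the groups compared alone. On the average they were 15 with either scaling, 17 with DESeq2's test and 14 with the stricter filter.

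The replicate numbers are not stated to mark a shared animal or day, and same-numbered libraries did not deviate together (correlations of -0.38 to 0.28 in 13 pairs). With the replicate number as a block, 0 members were called lower without cytokines (Clec7a lost), 2 with them (median -0.38; C1qc, Gpnmb, Laptm5 and Blnk lost) and 8 on the average (C1qb, Fcgr3, Coro1a and Blnk lost).

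Leaving out 1 library gave 0 to 2, 2 to 7 and 3 to 13 members called lower for the same 3 contrasts, and medians of -0.53 to -0.39 for ML351 against vehicle, 0.90 to 1.00 for cytokines against vehicle, 1.09 to 1.18 for the combination against ML351 and 0.050 to 0.18 for the interaction. Summed levels without Apoe were 553, 672, 269 and 351 CPM (combination, cytokines, ML351, vehicle), and the cytokine sum was 718 CPM on the library total alone.

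Values that changed sign were close to 0 and not called. With cytokines against vehicle and upper-quartile factors, C1qa stood at -0.10 and Csf1r at -0.071. Leaving out 1 library gave -0.035 to 0.065 for C1qa, -0.0940 to 0.24 for Csf1r and -0.21 to 0.050 for Trem2 in that contrast, -0.073 to 0.026 for C1qa with the combination against cytokines, -0.087 to 0.48 for Cd14 and -0.12 to 0.033 for Cd68 on the average, and -0.00991 to 0.14 for C1qc and -0.034 to 0.11 for Clec7a in the interaction. With the replicate block the interaction of C1qc was -0.011.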
